A study of Mus musculus with 12 samples.

Results

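Slc7a7, Gstm6, B3gnt3, Cxcl16 and Atp13a3 are 5 of the 26190 genes in the expression table, and all 5 were found there by name. They were selected on the same measurements described here. They were higher in atrium-like than in ventricle-like parts of heart organoids (HOs), or their chamber difference was larger in HOs than in hearts. The differences between chambers are therefore given as a description, with no test. The question was how each gene followed Epcam and Afp, which mark epithelium and endoderm, across the 6 HO libraries, so that atrial identity and epithelial content could be looked at separately.

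RNA was sequenced from 4 groups of 3 libraries, all labelled C57BL/6. Hearts of mouse embryos at E11.5 (E11.5H) were divided into atria and ventricles. Atrium-like and ventricle-like parts were cut surgically from HOs on day 13 of culture, and all HOs were grown from wild-type embryonic stem cells on a laminin-entactin gel with FGF4, then BMP4, BIO and LIF. The methods also name stem cell lines from an F1 cross of C57BL/6 and JF1, and neither they nor the labels say which line, or how many HOs, gave each library. Libraries held 23971258 to 30540993 fragments assigned to genes.

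The 5 genes belong to different pathways. Slc7a7 encodes y+LAT1, the light chain that joins 4F2hc (Slc3a2) at the basolateral membrane of gut and kidney epithelium and exports cationic amino acids, and it is also expressed in macrophages. Gstm6 is a mu-class glutathione S-transferase, of the family of enzymes that conjugate glutathione to reactive compounds. B3gnt3 adds N-acetylglucosamine to core 1 O-glycans. Cxcl16 is a membrane-bound chemokine, the ligand of Cxcr6, which Adam10 sheds from the cell surface. Atp13a3 is a P5B ATPase of endosomes that takes part in polyamine transport. Epcam is an adhesion molecule of epithelial cells, and Afp is the serum protein made by visceral endoderm and fetal liver.

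All 5 genes lie on the minus strand, on 5 different chromosomes of GRCm38. As deposited, Slc7a7 spans chr14:54369442-54417702, Gstm6 chr3:107938848-107943749, B3gnt3 chr8:71691720-71701800, Cxcl16 chr11:70454389-70459984 and Atp13a3 chr16:30312424-30388530. Promoter sequence from RefSeq (GRCm38.p6) was matched for 3 of the 5 genes. The 250 bases before the start were searched on both strands for letters bound by endoderm factors (TGTTTAC for FOXA, GTTAAT for HNF1, CAAAGT for HNF4, TTTATG for CDX). Letters of the epithelial factor GRHL (AACCNGTT) and of cardiac factors (CTATTTTTA for MEF2, AGGTGT for TBX5) were searched as well. So were those of the GATA family (AGATAA), which has members in both endoderm and heart. The stretches outside annotated exons are shown for these members, which were the ones with an entry in the promoter table, and for Epcam as the comparison gene, with every match in capitals.
Slc7a7, chr14:54417781-54417952, minus strand: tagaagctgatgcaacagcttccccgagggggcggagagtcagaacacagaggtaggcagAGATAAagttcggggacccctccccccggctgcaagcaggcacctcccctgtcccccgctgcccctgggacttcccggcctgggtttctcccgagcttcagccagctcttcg
Gstm6, chr3:107943750-107943984, minus strand: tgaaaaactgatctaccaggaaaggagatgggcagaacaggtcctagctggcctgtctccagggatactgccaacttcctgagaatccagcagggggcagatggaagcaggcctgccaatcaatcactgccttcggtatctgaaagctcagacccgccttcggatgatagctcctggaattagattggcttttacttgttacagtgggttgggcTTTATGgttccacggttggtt
B3gnt3, chr8:71701801-71702050, minus strand: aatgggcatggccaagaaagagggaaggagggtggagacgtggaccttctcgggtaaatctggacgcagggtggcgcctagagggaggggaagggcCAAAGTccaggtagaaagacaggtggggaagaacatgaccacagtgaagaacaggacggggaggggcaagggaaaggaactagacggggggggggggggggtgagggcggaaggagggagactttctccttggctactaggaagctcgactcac
Epcam, chr17:87635729-87635978, plus strand: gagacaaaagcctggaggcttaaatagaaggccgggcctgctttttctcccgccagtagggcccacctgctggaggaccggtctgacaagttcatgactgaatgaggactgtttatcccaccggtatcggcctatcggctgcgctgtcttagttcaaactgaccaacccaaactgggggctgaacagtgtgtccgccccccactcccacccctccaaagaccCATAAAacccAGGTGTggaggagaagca

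Each of the 3 members held 1 match, and no 2 members shared a motif. Slc7a7 held the GATA letters, which were in 9.99% of 32851 promoters of the same length. Gstm6 held the CDX letters, found in 10.8% of promoters, and so did Epcam on the opposite strand. B3gnt3 held the HNF4 letters, found in 12.6%, and Epcam also held the TBX5 letters, found in 11.8%. The window of Afp, not shown, held the HNF1 letters, found in 6.43%. None of these 5 windows held the FOXA, GRHL or MEF2 letters, which occurred in 3.17%, 1.79% and 0.454% of promoters. The Gstm6 window was the nearest of 3 RefSeq starts, 15 bases from the deposited start.

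Epcam and Afp differed widely between HO libraries of the same part. Epcam ranged 6.56-fold over the atrium-like and 41.5-fold over the ventricle-like libraries, and Afp 47.6-fold and 1270-fold. Epcam was at 701, 107 and 409 FPKM in the atrium-like libraries 1, 2 and 3 and at 58.4, 5.67 and 235 FPKM in the ventricle-like libraries 1, 2 and 3. Afp was at 3741, 78.6 and 1453 FPKM in the atrium-like parts and at 85.0, 1.88 and 2376 FPKM in the ventricle-like parts. For both genes the parts overlapped, and ventricle-like library 3 lay above atrium-like library 2. In E11.5H, Epcam did not exceed 0.496 FPKM and Afp did not exceed 0.777 FPKM. The difference between parts did not pass for Epcam (log2 difference 2.30 ± 1.34 SE, edgeR adjusted p = 0.75) or for Afp (1.43 ± 2.19, adjusted p = 0.868).

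The epithelial and endoderm lists rose in HOs as Epcam and Afp did, whereas most cardiomyocyte and atrial genes fell. All 18 epithelial genes were higher in HOs than in E11.5H on the average over chambers, and so were all 16 tested genes of visceral endoderm and liver, beside 20.6% of all 16494 genes that rose by the same rule. Of the cardiomyocyte genes 15 of 16 fell, and of the atrial genes 10 of 15, beside 10.2% of all genes that fell. The summed level of the 15 atrial genes was 13690 to 16900 FPKM in atria, 8383 to 8800 FPKM in ventricles, 218 to 566 FPKM in atrium-like parts and 659 to 2017 FPKM in ventricle-like parts. In HOs the atrium-like parts lay below the ventricle-like parts without overlap, whereas in E11.5H atria lay above ventricles. The summed level of the 16 cardiomyocyte genes was also lower in the atrium-like parts, at 249 to 980 FPKM against 1539 to 3655 FPKM, so the lower atrial sum moved with a lower cardiomyocyte sum. In these bulk samples, fewer cells of a type and less RNA per cell cannot be told apart. No gene passed between the HO parts in either direction (edgeR, 0% of 15703 genes; 889 at an unadjusted p under 0.05, and 59 by DESeq2).

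**Figure D1:**
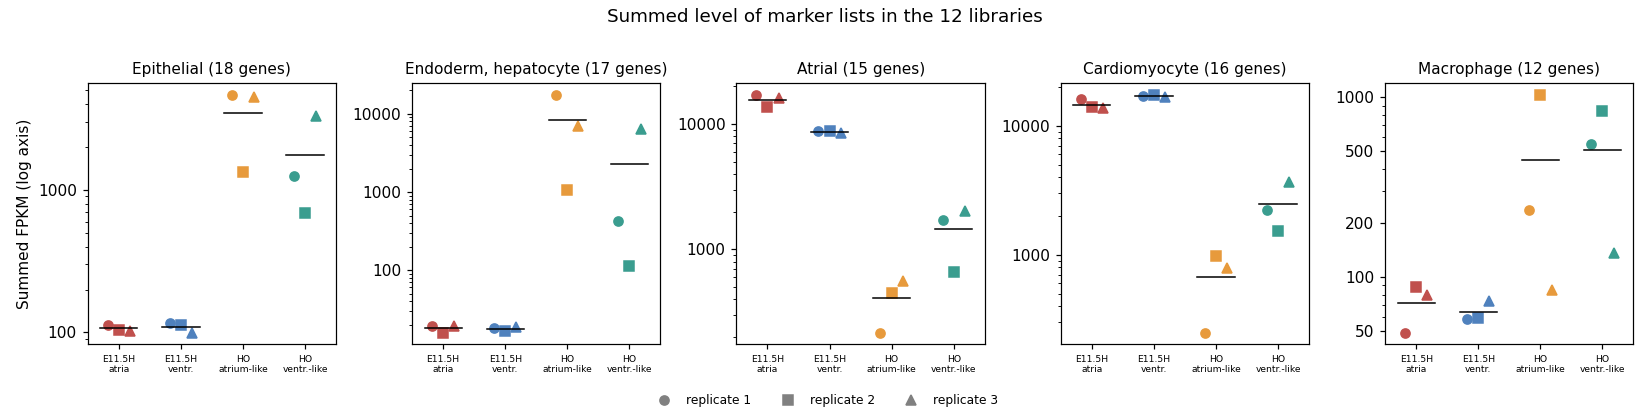
Summed FPKM (log axis) of 5 marker lists in each library, by group, with the 3 replicates as circle, square and triangle and the group mean as a line. Epithelial and endoderm genes were higher in all HO libraries than in any E11.5H library, and within HOs both the atrial and the cardiomyocyte sum were lower in atrium-like parts, at 218 to 566 FPKM against 659 to 2017 FPKM for the atrial sum.

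Slc7a7 was higher in atria than in ventricles in both tissues and was the member that followed Epcam most closely. Its level was 10.4, 8.91 and 8.65 FPKM in atria and 2.14, 1.72 and 1.53 FPKM in ventricles of E11.5H. In HOs it was 42.4, 11.8 and 21.2 FPKM in atrium-like parts and 3.24, 2.29 and 10.9 FPKM in ventricle-like parts. The groups did not overlap in either tissue, but ventricle-like library 3 came within 1 FPKM of atrium-like library 2. The log2 difference, atrial minus ventricular, was 2.31 ± 0.18 (SE, n = 3 per group) in E11.5H and 2.47 ± 0.82 in HOs. Across the HO libraries Slc7a7 kept the order of Epcam except for a swap of 2 neighbours, atrium-like library 2 and ventricle-like library 3. Without atrium-like library 1 the HO difference was 1.67, and without ventricle-like library 3 it was 3.45.

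Within HO parts, the slope of Slc7a7 was 0.47 ± 0.10 (SE) log2 units per log2 unit of Epcam, which missed the threshold (edgeR adjusted p = 0.0721), and 0.25 ± 0.05 per log2 unit of Afp, which passed it (adjusted p = 0.0473). The Epcam slope was called without ventricle-like library 2, where it was 0.73 (adjusted p = 0.0378), and by DESeq2 (adjusted p = 8.29e-04). Slc7a7 was the only member that edgeR called on either slope in all 6 libraries, where 2% of 15702 genes rose with Epcam and 2.92% rose with Afp. The call on Afp was lost when any library other than ventricle-like library 2 was left out, with a slope of 0.22 to 0.26 and an adjusted p of 0.0605 to 0.342. With Epcam in the fit, the difference between HO parts was 1.08 ± 0.52 instead of 2.47 ± 0.82, and with Afp it was 1.64 ± 0.41. On the average over chambers Slc7a7 was 1.61 ± 0.44 log2 units higher in HOs than in E11.5H, and 1.10 without ventricle-like library 3. This average holds the atrium-like levels on which the members were selected, so for all 5 genes it is given with no test.

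Other values moved with Slc7a7. In E11.5H, 6 of 12 macrophage genes (Csf1r, Cd68, C1qa, C1qb, C1qc and Cx3cr1) were higher in atria, beside 2.92% of 14536 genes, while Lyz2 was lower, beside 1.97%. None of the 12 was at 0 in atria. Summed FPKM of the list overlapped between chambers, with 49.1 to 87.6 for atria against 58.6 to 74.0 for ventricles. Lyz2 alone contributed 37.75 to 47.93 FPKM to the ventricular sums. The mean log2 CPM of the list did not overlap, since the lowest atrial library was at 2.40 and the highest ventricular one at 2.07. The log2 difference was positive for 11 of the 12 genes, with a median of 1.61. In HOs the macrophage sum ranged from 84.8 to 1029 FPKM over the atrium-like libraries, and from 136 to 838 FPKM over the others, and in each part the library with the highest sum, library 2, held the least Slc7a7. The part of macrophages in the Slc7a7 difference was not tested. Slc7a7 overlaps Oxa1l on the opposite strand, whose transcripts match 8.12% of the 50-base windows of the longest coding transcript of Slc7a7, and the use of strand in counting is not stated. Oxa1l was at 19.2 to 20.0 FPKM in atria, 23.7 to 28.1 in ventricles, with 11.3 to 13.9 FPKM in the atrium-like libraries and 14.0 to 18.4 FPKM in the others of HOs, so it moved opposite to Slc7a7.

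Gstm6 was also higher in atria of E11.5H, but its HO parts overlapped. It was at 12.9, 15.8 and 15.8 FPKM in atria and 4.74, 6.00 and 5.20 FPKM in ventricles. Atrium-like parts held 35.3, 11.8 and 11.8 FPKM and ventricle-like parts 4.23, 4.65 and 13.9 FPKM, so ventricle-like library 3 exceeded 2 of the 3 atrium-like libraries. The log2 difference was 1.41 ± 0.18 in E11.5H and 1.65 ± 0.75 in HOs, and the latter was 0.70 without atrium-like library 1 and 2.41 without ventricle-like library 3. These 2 libraries were also the highest and the second highest for Afp. With Epcam in the fit the difference between parts was 0.55 ± 0.71, and with Afp 0.97 ± 0.59. Leaving out 1 library gave 0.13 (ventricle-like library 1) to 0.98 (ventricle-like library 3) with Epcam, and 0.57 (atrium-like library 1) to 1.24 (atrium-like library 3) with Afp.

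The slope of Gstm6 was 0.35 ± 0.13 per log2 unit of Epcam (edgeR adjusted p = 0.221) and 0.19 ± 0.07 per log2 unit of Afp (adjusted p = 0.177), and neither passed. Averaged over chambers, Gstm6 was 0.54 ± 0.40 log2 units higher in HOs, the smallest of the 5 values, and 0.06 higher without atrium-like library 1. Of its 1130 windows of 50 bases, 130 occur in transcripts of other genes, 76 of them in Gstm3. Its fragment numbers were not all whole, in HOs and in E11.5H, so reads were divided between genes. Fragment numbers of Slc7a7 and Cxcl16 were not whole either. Gstm3 was at 1204, 151 and 239 FPKM in atrium-like and 9.60, 0.802 and 294 FPKM in ventricle-like parts, against at most 0.296 FPKM in E11.5H. The level of Gstm6 in HOs is therefore uncertain, and the part of Gstm3 reads in it was not tested.

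B3gnt3 showed opposite chamber differences in hearts and HOs. Its level was 0.417, 0.692 and 1.05 FPKM in atria and 1.68, 2.30 and 2.19 FPKM in ventricles of E11.5H, from 31 to 156 fragments per library. Atrium-like parts held 11.8, 20.0 and 14.7 FPKM and ventricle-like parts 1.32, 1.86 and 3.68 FPKM. The HO parts did not overlap, nor did the chambers of E11.5H, in the opposite direction. The log2 difference was -1.58 ± 0.41 in E11.5H and 2.91 ± 0.44 in HOs. Ventricle-like parts overlapped the ventricles of E11.5H.

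The atrium-like library with the least Epcam, library 2, had the highest B3gnt3, and the one with the most Epcam, library 1, had the lowest of the 3. The slope of B3gnt3 was 0.10 ± 0.10 per log2 unit of Epcam (edgeR adjusted p = 0.63) and 0.06 ± 0.05 per log2 unit of Afp (adjusted p = 0.558). Both turned negative without ventricle-like library 3, at -0.12 and -0.07. The difference between HO parts was 2.68 ± 0.50 with Epcam and 2.78 ± 0.43 with Afp in the fit. Averaged over chambers, B3gnt3 was 2.32 ± 0.31 log2 units higher in HOs, a value that came from the atrium-like parts on which it was selected.

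Cxcl16 was higher in every HO library than in any E11.5H library and, as B3gnt3, had opposite chamber differences. In E11.5H it was at 1.24, 1.22 and 1.28 FPKM in atria and 2.88, 3.53 and 2.59 FPKM in ventricles. In HOs it was at 23.3, 19.8 and 18.4 FPKM in atrium-like and 13.7, 7.61 and 9.78 FPKM in ventricle-like parts. The groups did not overlap in either tissue, and the log2 difference was -1.34 ± 0.28 in E11.5H and 1.18 ± 0.33 in HOs. Cxcl16 was 2.97 ± 0.20 log2 units higher in HOs on the average over chambers, the largest of the 5 differences between tissues.

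Its slope was 0.12 ± 0.08 per log2 unit of Epcam (edgeR adjusted p = 0.446) and 0.06 ± 0.05 per log2 unit of Afp (adjusted p = 0.5). Ventricle-like library 3, with 235 FPKM of Epcam, held less Cxcl16 than ventricle-like library 1, with 58.4 FPKM of Epcam. With Epcam in the fit the difference between HO parts was 0.80 ± 0.39, and 0.22 without ventricle-like library 3. With Afp in the fit it was 0.97 ± 0.35, and 0.44 without ventricle-like library 3. On the opposite strand Cxcl16 overlaps Zmynd15, which shares 19.0% of its 50-base windows and was at most 0.501 FPKM in any library.

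Atp13a3 had the smallest range over the HO libraries and the smallest chamber differences of the 5 genes. It was at 4.26, 4.75 and 4.24 FPKM in atria and 7.10, 8.44 and 6.59 FPKM in ventricles of E11.5H. It was at 11.48, 15.8 and 11.1 FPKM in atrium-like and 10.7, 8.91 and 10.7 FPKM in ventricle-like parts. Groups did not overlap, although the lowest atrium-like and the highest ventricle-like library were less than 1 FPKM apart. The log2 difference was -0.81 ± 0.11 in E11.5H and 0.51 ± 0.18 in HOs, and with Epcam or Afp in the fit the latter was 0.41 ± 0.24 or 0.46 ± 0.20. Without atrium-like library 2 it was 0.19 with Epcam and 0.27 with Afp in the fit.

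Over the 6 HO libraries Atp13a3 ranged 1.78-fold, while Epcam ranged 124-fold and Afp 1990-fold. Its slope was 0.03 ± 0.05 per log2 unit of Epcam (edgeR adjusted p = 0.752) and 0.01 ± 0.03 per log2 unit of Afp (adjusted p = 0.783), with a sign that changed without ventricle-like library 2. Averaged over chambers, Atp13a3 was 1.03 ± 0.10 log2 units higher in HOs, and at least 0.98 when any 1 library was left out.

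**Figure D2:**
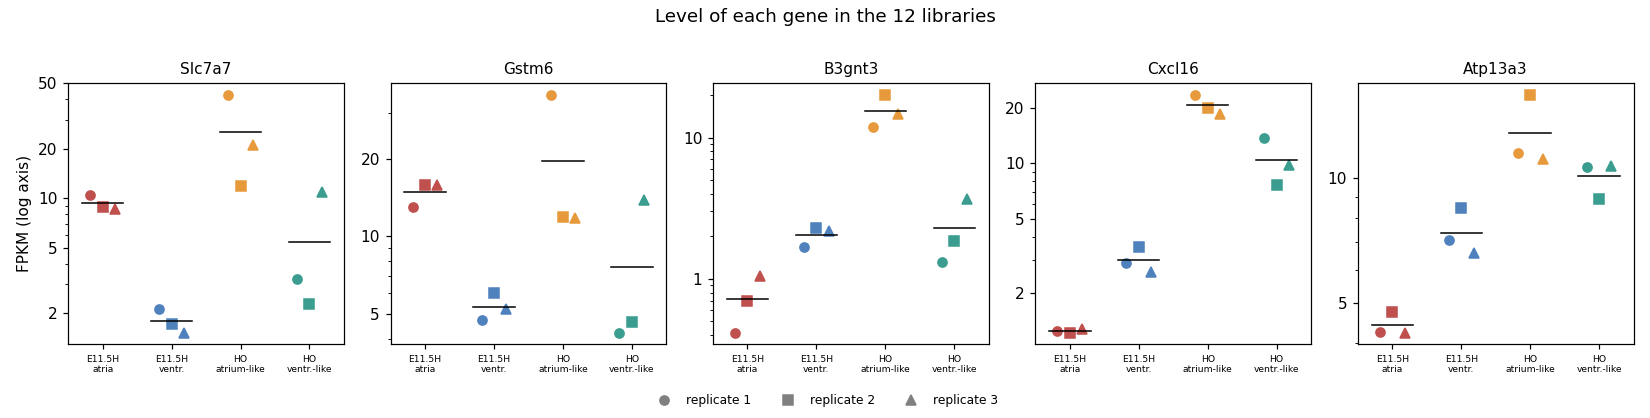
FPKM (log axis) of the 5 genes in each of the 12 libraries, by group, with replicates as symbols and the group mean as a line. Slc7a7 and Gstm6 were higher in atria than in ventricles of E11.5H, whereas B3gnt3, Cxcl16 and Atp13a3 were lower, and in HOs the groups overlapped for Gstm6 alone.

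In E11.5H, 2 of the 5 genes lay above and 3 below in atria without overlap in FPKM, beside 21.3% and 11.8% of all 14536 genes. In HOs 4 of the 5 lay above in atrium-like parts, beside 4% of 15703 genes. The rule used these contrasts, so nothing is read from the counts. The average over chambers includes the atrium-like libraries, so no count of members is read from it either.

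Members differed in how they followed Epcam and Afp, given here as Pearson's r of log2 CPM over the 6 HO libraries. These libraries came from 2 parts and shared library depth and composition, so r is a description with no p. For Epcam, r was 0.93 for Slc7a7, 0.85 for Gstm6, 0.81 for Cxcl16, 0.72 for Atp13a3 and 0.69 for B3gnt3, and Spearman's rho was 0.94, 0.89, 0.83, 0.66 and 0.54. For comparison, 4.6% of 15703 genes had an r at least as high as Slc7a7, 11.2% as Gstm6, 14.7% as Cxcl16, 19.9% as Atp13a3 and 21.7% as B3gnt3. Without the 2 libraries farthest from the median of Epcam, atrium-like library 1 and ventricle-like library 2, r stayed at 0.90 for Slc7a7 and 0.80 for Gstm6. It was then 0.54 for B3gnt3, 0.14 for Cxcl16 and -0.04 for Atp13a3, over 4 libraries with a narrower range of Epcam. With only 1 library left out at a time, r was 0.56 to 0.97 for Cxcl16 and 0.27 to 0.95 for Atp13a3.

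After the mean of each part was removed, r with Epcam was 0.91 for Slc7a7, 0.74 for Gstm6, 0.66 for Cxcl16, 0.45 for Atp13a3 and 0.36 for B3gnt3. Of 15703 genes, 7.29%, 19.9%, 24.5%, 34.2% and 37.5% had an r at least as high, in that order. For Afp, r over the 6 libraries was 0.86, 0.81, 0.65, 0.57 and 0.54 in the same order of genes, and rho was 0.71, 0.83, 0.60, 0.37 and 0.14. An r with Afp at least as high was reached by 10.4%, 14.4%, 24%, 27.9% and 29% of the 15703 genes. Without the same 2 libraries, which were also the farthest for Afp, r was 0.62 for Slc7a7, 0.66 for Gstm6, -0.33 for Cxcl16, -0.43 for Atp13a3 and 0.13 for B3gnt3. Epcam and Afp moved together, since Afp rose by 1.91 ± 0.12 log2 units per log2 unit of Epcam within parts (edgeR adjusted p = 0.00743). The slopes on either gene therefore describe nearly the same order of libraries.

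**Figure D3:**
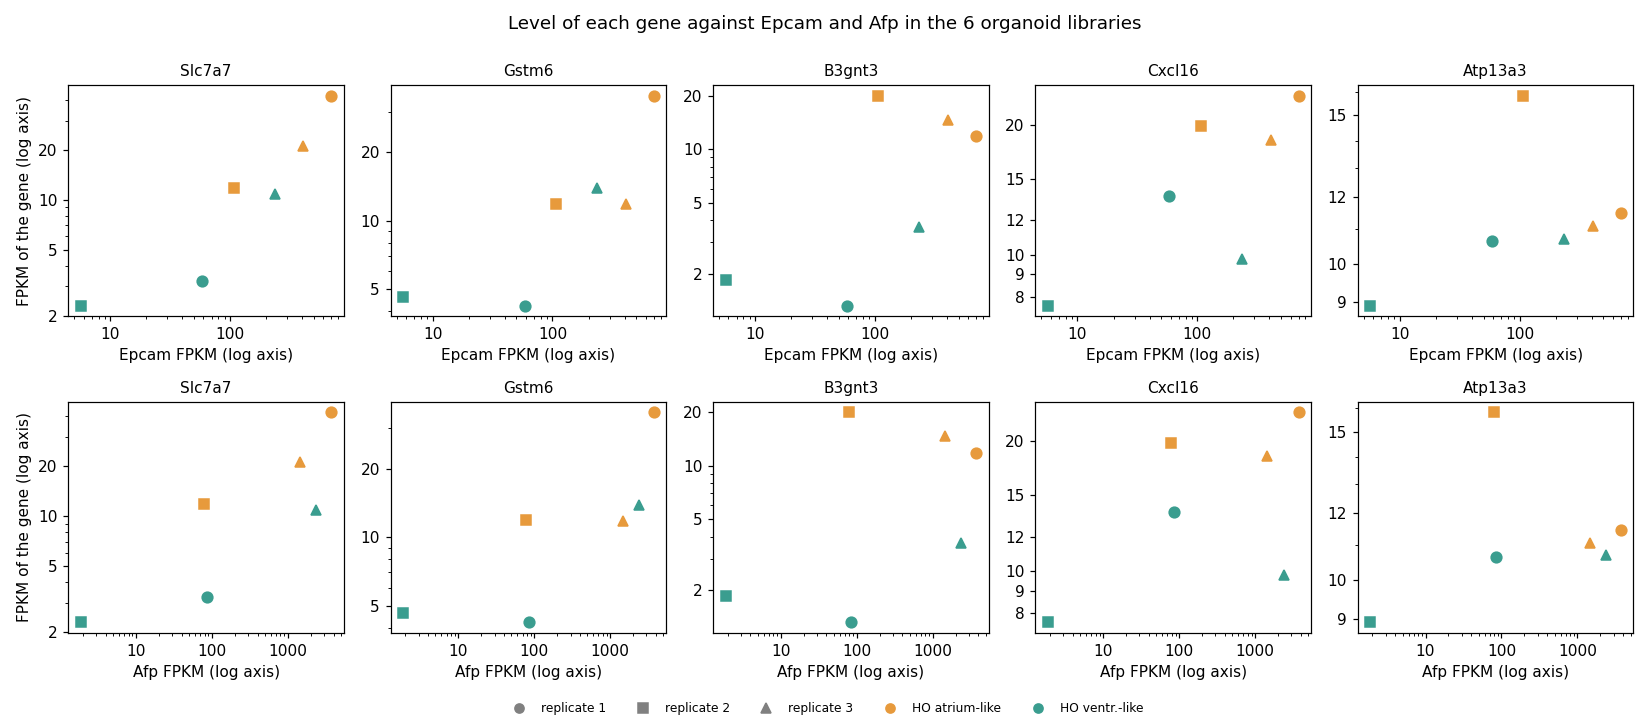
FPKM of each of the 5 genes against FPKM of Epcam (upper row) and of Afp (lower row) in the 6 HO libraries, all axes logarithmic, with parts as colours and replicates as symbols. Slc7a7 climbs with Epcam through both parts, whereas for B3gnt3 the 3 atrium-like libraries at 11.8 to 20.0 FPKM lie above the ventricle-like ones at 1.32 to 3.68 FPKM.

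Parts and Epcam levels were crossed in a pair of libraries, which was picked after its values were seen. Atrium-like library 2 held 107 FPKM of Epcam and 78.6 FPKM of Afp, less than ventricle-like library 3 with 235 and 2376 FPKM. Slc7a7 was at 11.8 FPKM in the former and 10.9 FPKM in the latter, and Gstm6 at 11.8 and 13.9 FPKM. B3gnt3 was at 20.0 and 3.68 FPKM, Cxcl16 at 19.8 and 9.78 FPKM, and Atp13a3 at 15.8 and 10.7 FPKM. Slc7a7 and Gstm6 were near one level in these libraries. The direction was fixed by the selection for every member but Gstm6, since the HO parts of the others, Slc7a7 among them, did not overlap. The pair is therefore a description only.

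**Figure D4:**
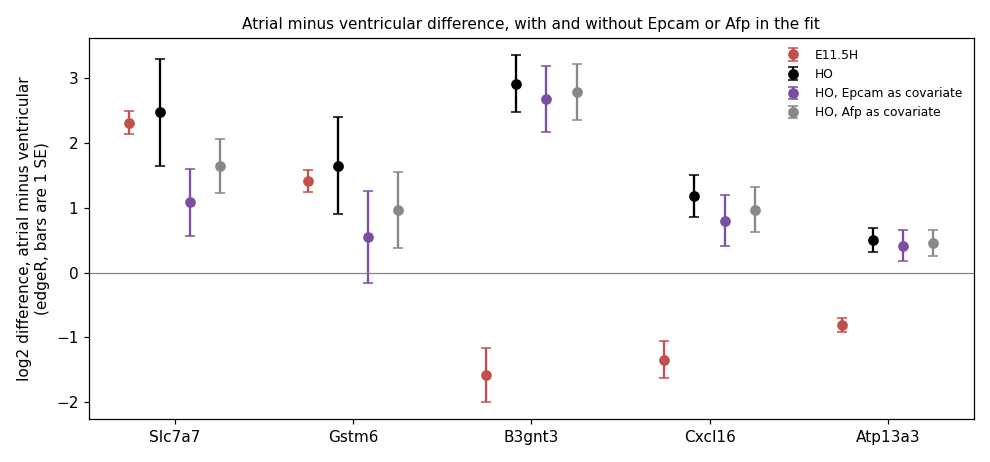
Log2 difference, atrial minus ventricular, of the 5 genes in E11.5H, in HOs, and in HOs with Epcam or with Afp as a covariate, where points are edgeR estimates and bars 1 SE. With Epcam in the fit the difference moved from 2.47 to 1.08 for Slc7a7 and from 1.65 to 0.55 for Gstm6, but from 2.91 to 2.68 for B3gnt3.

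The members were also set against the atrial and cardiomyocyte genes within HOs. The sign over all 6 libraries was set in part by the selection, since the members were chosen as higher in atrium-like parts and both lists were lower there. With the mean of the 15 atrial genes, r over the 6 libraries was -0.82 for Slc7a7, -0.80 for Gstm6, -0.76 for B3gnt3, -0.75 for Cxcl16 and -0.57 for Atp13a3. After the mean of each part was removed it was -0.45, -0.58, 0.19, -0.10 and 0.45 in the same order. With the mean of the 16 cardiomyocyte genes r was -0.52 to -0.70 over the 6 libraries, and -0.20 (Cxcl16) to 0.64 (B3gnt3) after the mean of each part was removed. With the mean of 10 fibroblast and mesenchyme genes, r within parts was -0.93 for Slc7a7, -0.87 for Gstm6, -0.60 for B3gnt3, -0.14 for Cxcl16 and 0.01 for Atp13a3. Over the 6 libraries it was -0.56, -0.63, -0.17, -0.07 and 0.01. Slc7a7 and Gstm6 thus moved with Epcam and against this list, and which of these they follow was not tested. In E11.5H, 10 of the 15 atrial genes were higher in atria (Myl7, Sln, Kcnj3, Kcnj5, Kcna5, Tbx5, Nr2f1, Nr2f2, Vsnl1 and Stard10) and Bmp10 was lower, beside 2.92% and 1.97% of all 14536 genes. Slc7a7 and Gstm6 were also higher in atria and the other members were not. The selection of members used this contrast, so the side of a member is a description only. Of the 14 atrial genes tested in HOs, only Stard10 was called on a slope, rising with both Epcam and Afp, beside 2% and 2.92% of 15702 genes. Of the epithelial genes, all 18 had a positive difference between HO parts (median log2 1.22) and 4 of 17 a positive one with Epcam in the fit (median -0.61). With Afp in the fit, 14 of 18 had a positive one (median 0.46). Epcam is itself a gene of this list, so the fit with Epcam takes out variation that the list shares with it. Over all genes tested the median difference between HO parts was -0.03. Each of the 18 list genes was covered in HO libraries, whereas 1 to 7 of them were at 0 in each E11.5H library.

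Among the partners and relatives of Slc7a7, the heavy chain Slc3a2 rose in HOs by 1.94 ± 0.10 log2 units on the average over chambers (edgeR adjusted p = 1.32e-06). It held 83.5 to 88.8 FPKM in the atrium-like libraries and 77.5 to 97.01 FPKM in the ventricle-like ones, so it did not share the spread of Slc7a7. Of 11 tested amino acid exchangers, 8 rose in HOs and none fell, with a median of 2.65, beside 20.6% of all genes that rose and 10.2% that fell. Slc7a9, the light chain at the apical membrane of gut and kidney, went from 78.1, 9.79 and 47.9 FPKM in atrium-like to 1.63, 0 and 19.3 FPKM in ventricle-like parts. Its slope on Epcam was 1.52 ± 0.20 (edgeR adjusted p = 0.0254), a call kept in 3 of 6 fits with 1 library left out. Its heavy chain Slc3a1 was called on both slopes as well, whereas Slc7a11 was called as falling on both, beside 0.911% (Epcam) and 1.66% (Afp) of 15702 genes. Of 10 exchangers tested in HOs, 3 had a positive slope on Epcam (median -0.17) and 3 on Afp (median -0.1). The light chains Slc7a5 (1.45 ± 0.26) and Slc7a8 (2.72 ± 0.33) rose in HOs without a positive slope on Epcam, and Slc7a6, the closest relative of Slc7a7, did not pass (0.18 ± 0.24, adjusted p = 0.559).

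Of the 6 other mu-class genes, Gstm1, Gstm2, Gstm3 and Gstm4 rose in HOs and none fell, beside the same 20.6% and 10.2% of all genes. Gstm3 had slopes of 1.40 ± 0.24 on Epcam (edgeR adjusted p = 0.0445) and 0.73 ± 0.11 on Afp (adjusted p = 0.0298), and Gstm1 a slope of 0.30 ± 0.05 on Afp (adjusted p = 0.037). Of the 6 fits with 1 library left out, 1 kept the call of Gstm3 on Epcam, and 2 kept it on Afp. The call of Gstm1 was kept in 2 of 6. Gstm1 reached 312 to 1408 FPKM in the atrium-like libraries and 140 to 893 FPKM in the ventricle-like ones, against 10.6 to 17.7 FPKM in E11.5H. The change of Gstm5 between tissues was -0.10 ± 0.21 and that of Gstm7 -0.94 ± 0.32, and neither was called. In E11.5H atria, Gstm2 was 0.87 ± 0.11 log2 units higher, which was under the required difference of 1. None of the 5 other mu-class genes tested there was called, and Gstm6 itself is given with no test.

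Around B3gnt3, 4 of 12 tested O-glycan and polylactosamine genes rose in HOs (B3gnt2, C1galt1c1, Gcnt2 and Gcnt3) and 1 fell (B3gnt8), beside 20.6% and 10.2% of all genes, so the list lay near the background. B3gnt2, which extends N-glycans with polylactosamine, rose by 1.46 ± 0.13 (edgeR adjusted p = 2.68e-05). Gcnt3, a core 2 and core 4 branching enzyme of mucous epithelia, was at 0 in 5 of 6 E11.5H libraries and at 1 fragment in the other. It reached 0.871 to 1.94 FPKM in the atrium-like libraries and 0.00712 to 0.731 FPKM in the ventricle-like ones. B3gnt7 (0.33 ± 0.35) and Gcnt1 (0.83 ± 0.29) were not called, and no gene of this list was called on the Epcam or Afp slopes or between the E11.5H chambers.

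The receptor of Cxcl16 was nearly absent, since Cxcr6 did not exceed 0.314 FPKM in any library and was not tested. The sheddase Adam10 was at 20.6 to 67.4 FPKM in HOs and 26.9 to 39.3 FPKM in E11.5H, and its difference did not pass (0.44 ± 0.22, edgeR adjusted p = 0.117). Cx3cl1, the other membrane-bound chemokine, was at 0.264 to 0.957 FPKM in atria and 4.60 to 5.48 FPKM in ventricles and was called lower in atria (-3.11 ± 0.38, adjusted p = 5.04e-04). In HOs it was at 18.2 to 37.9 FPKM in the atrium-like libraries and 9.42 to 34.4 FPKM in the ventricle-like ones, so its parts overlapped. Of 11 tested genes of this list 7 rose in HOs, by a list median of 3.8, and none fell, beside 20.6% and 10.2% of all genes.

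Of 12 polyamine genes tested, Sat1, which acetylates polyamines for export, rose by 3.01 ± 0.29 (edgeR adjusted p = 3.31e-05), and Atp13a2 (-1.05 ± 0.19, adjusted p = 0.00147) and Sms fell. Atp13a1, which works in the endoplasmic reticulum, changed by 0.59 ± 0.14 and was not called, Odc1 by 0.11 ± 0.23, and Atp13a4 did not exceed 0.0682 FPKM in any library. Thus 1 rose and 2 fell of the 12, beside 20.6% and 10.2% of all genes, and the median of the list was -0.04, against 0.13 over all genes tested.

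The genes most like each member over the 6 HO libraries, among 12135 with a mean of at least 5 CPM, were Tonsl, Ace and Lpin3 for Slc7a7 (r of 0.997 to 0.998) and Dio1, Aco1 and Tgoln2 for Gstm6 (0.992 to 0.995). For B3gnt3 they were Slk, H2-T9 and Lrp5 (0.972 to 0.981), for Cxcl16 Zup1, Pkdcc and Zfp935 (0.988 to 0.997), and for Atp13a3 Sfi1, Atl3 and Afg3l1 (0.979 to 0.989). The lists shared no gene, and with 6 libraries and this many genes such values of r are a description only.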

How the data were processed

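RNA of dissected atrial and ventricular parts of E11.5H and HOs was sequenced, 3 libraries per group. The labels name an Illumina TruSeq kit, whereas the methods state that Takara prepared and sequenced the libraries. Reads were aligned with STAR to mm10 (GRCm38), and the authors deposited expected counts (estimated fragments per gene, without normalization) and FPKM. The STAR version, annotation release and use of strand are not given in the sources used here. FPKM values carry no correction for composition and were used for levels only.

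Expected counts were rounded (23.8% were not whole) and tested with edgeR 4.0.16 in R 4.3.3, using the quasi-likelihood test, TMM and filterByExpr with a minimum count of 10. Calls needed a Benjamini-Hochberg adjusted p under 0.05 over all genes and an absolute log2 difference over 1. Slopes needed the p alone. The fits were E11.5H alone, HOs alone, HOs with log2 CPM (prior count 2) of Epcam or Afp beside the part, and all 12 libraries for the average over chambers. DESeq2 1.42.0 and limma 3.58.1 were alternatives. The scripts were tested on simulated data.

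The members and gene lists were chosen with earlier results of these data known. Text names the members, Epcam, Afp, relatives by role, and the 3 genes most like each member. Exceptions named after their values were seen are Slc3a1, Slc7a11, C1galt1c1, Gcnt2, B3gnt8, Sms, Oxa1l, Zmynd15 and the called marker genes. P-values measure the spread between libraries, which the methods call biological triplicates for HOs, and whether the E11.5H libraries came from separate litters is not stated.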

Additional observations from a re-analysis of the deposited data

Results flagged for a closer look

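For 3 of the genes every E11.5H atrial library lay below every ventricular one while the HO libraries were ordered the other way, also without overlap. The difference between the 2 chamber differences, on the log2 scale, was 4.49 ± 0.62 (SE) for B3gnt3, 2.52 ± 0.37 for Cxcl16 and 1.32 ± 0.21 for Atp13a3. It was not tested, because the genes were chosen on it. Leaving out each of the 12 libraries in turn gave 4.22 to 5.05 for B3gnt3, 2.31 to 2.79 for Cxcl16 and 1.204 to 1.43 for Atp13a3. For Slc7a7 (0.12 ± 0.87) and Gstm6 (0.20 ± 0.80) the same value was smaller than its standard error and changed sign without atrium-like library 1, to -0.59 and -0.67.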

How the results depend on the processing

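Counts of called genes depended on the test and on single HO libraries. With DESeq2, 2928 genes instead of 718 were called on the Afp slope, 2593 instead of 457 on the Epcam slope, 455 instead of 25 in the difference between the chamber differences of the 2 tissues, and 59 instead of 0 between HO parts. Leaving out 1 library gave 0 to 667 genes on the Afp slope and 0 to 749 on the Epcam slope, and both counts of 0 came without ventricle-like library 3. It gave 2 to 216 genes in the difference between the chamber differences. Slopes near 0 changed sign. Leaving out 1 library gave -0.0165 to 0.0323 for Atp13a3 on Afp and -0.0316 to 0.0653 on Epcam, with the lowest without ventricle-like library 2, and library totals alone gave -0.0013 on Afp. For B3gnt3 it gave -0.066 to 0.0917 on Afp and -0.1185 to 0.1555 on Epcam, with the lowest without ventricle-like library 3. The cause was not tested. Whether libraries with the same replicate number came from the same HOs or hearts is not stated. The correlation of their deviations from the group means was 0.017, 0.589 and 0.36 in HOs and 0.007 to 0.043 in E11.5H. Atrium-like libraries 2 and 3 correlated best with their own number, but atrium-like library 1 did so with ventricle-like library 3 (0.436). That value was above the 0.36 between ventricle-like library 3 and its own number, so pairing was not assumed. With the replicate number as a block, 0 genes were called on either slope and 5 in the difference between the chamber differences. On the average over chambers, HOs against E11.5H, it was 3266 instead of 5084.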
